A study of Mus musculus with 45 samples.

Results

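The genes described here encode nuclear subunits of the mitochondrial respiratory chain and its ATP synthase, together with some of the factors that assemble complex I. They were taken by symbol (Ndufa, Ndufb, Ndufc, Ndufs and Ndufv genes, Sdha to Sdhd, Uqcr, Cox4 to Cox8 and Atp5), and 80 of the 18180 genes measured met that rule. Complex I held 45 of them, complex II 4, complex III 6, complex IV 15 and complex V 10. Of the complex I genes, 8 were Ndufaf assembly factors, which are not part of the finished enzyme, 6 were core subunits and 31 were accessory subunits. The rule also took Ndufa4, once counted with complex I and now assigned to complex IV, and Cox7a2l, a factor that joins complexes III and IV into supercomplexes. Genes are grouped by symbol throughout, so Ndufa4 and Ndufa4l2 count among the complex I accessory subunits and Cox7a2l counts with complex IV.

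The livers came from male C57Bl/6J mice aged 8 weeks that had been fasted for 16 h before dosing. Acetaminophen (APAP) was given once by oral gavage at 300 mg/kg in 1% hydroxyethylcellulose, and control mice received that vehicle alone. After APAP or vehicle, livers were taken at 4 times, 3, 6, 9 and 24 h, and untreated mice were killed at 0 h, with 5 mice in each of the 9 groups. Total liver RNA from each mouse was hybridised to 1 Affymetrix array, and every value below is a log2 intensity as the authors normalised it. APAP is a painkiller that pericentral hepatocytes oxidise at high doses to a reactive quinone imine, which depletes glutathione and binds to proteins, those of mitochondria among them.

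The respiratory chain passes electrons from NADH through complex I, or from succinate through complex II, to ubiquinone, complex III, cytochrome c and complex IV, where oxygen is reduced. Complexes I, III and IV pump protons, and complex V uses the resulting gradient to make ATP. Complex II is built wholly from nuclear genes, whereas the others also contain subunits encoded by mitochondrial DNA, which the rule did not take. Hepatocytes are rich in mitochondria and depend on this chain for urea and glucose synthesis.

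Over the 45 arrays, the array medians ran from 7.59 to 7.66 and the correlations between arrays from 0.9608 to 0.9982. The mean of 11 hepatocyte markers was between 14.54 and 14.58 in all 9 groups, in keeping with the tissue label. Some arrays stood apart. On 7 arrays Ucp1, the uncoupling protein of brown fat, was between 7.31 and 11.08 against 6.38 to 6.84 on the other 38, and these were vehicle 3 h replicates 4 and 5, vehicle 9 h replicate 5, APAP 6 h replicates 1 and 5, APAP 9 h replicate 2 and APAP 24 h replicate 1. APAP 24 h replicates 1 and 3 had mean correlations of 0.9659 and 0.9793 with the vehicle arrays of that time, against 0.9890 to 0.9899 for the other 3. In untreated replicate 1, the mean of the complex I accessory subunits was 11.92, against 11.65 to 11.69 in the other untreated mice. Counts that depend on these arrays are given below with and without them.

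After APAP, these genes lay lower than in the time-matched vehicle livers, by small amounts, at each time. A gene is said to have risen or fallen when its limma adjusted p, over all 18180 genes, was under 0.05. By that measure 19 of the 80 fell and 0 rose at 3 h, where 14.2% of all genes fell and 8.13% rose. At 6 h 33 fell and 1 rose, against 17% and 10.4% of all genes. At 9 h 30 fell and 0 rose (all genes, 15% and 13.4%), and at 24 h 26 fell and 0 rose (all genes, 16.1% and 13.4%). At an unadjusted p under 0.05, the numbers higher were 1, 3, 0 and 0.

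The differences were narrow. In order of time, the median log2 difference over the 80 genes was -0.14, -0.12, -0.13 and -0.13, and over all genes it was 0.02, 0.01, -0.03 and -0.05. Of the 80, 61 (76.2%) had a difference below 0 at all 4 times, against 16.8% of all genes. In all, 52 (65%) fell at 1 or more times, against 35.9% of all genes. These 80 genes were bright, with group means of 11.48 to 11.62 against array medians of 7.59 to 7.66. The shares of all genes given throughout were not matched for brightness. The study's stricter threshold adds a change of at least 1.5-fold, and only Ndufaf3 at 9 h met it, where 4.54% of all genes did. None of the 80 met it at 3, 6 or 24 h (all genes, 4.03%, 5.32% and 4.68%). In bulk liver, fewer cells of a type and less RNA per cell cannot be told apart.

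**Figure D1:**
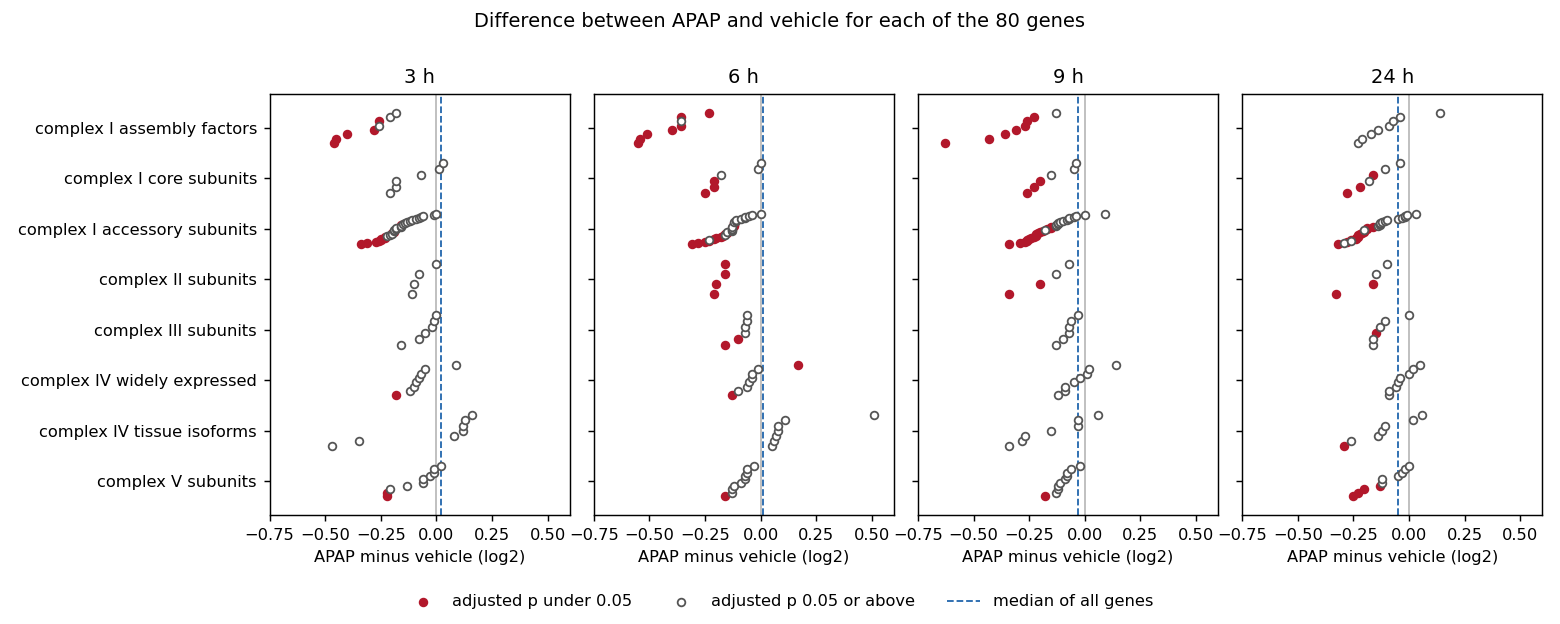
Log2 difference of each of the 80 genes between APAP and vehicle (x axis), in 4 panels by time and 8 rows by role, with genes at adjusted p under 0.05 as filled red points and the median of all genes as a dashed line. Most points lie below 0 in complex I and II, and among genes past the test the assembly factors hold the lowest values at 3, 6 and 9 h.

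The counts at 3 and 24 h rested on few mice. At 3 h, leaving out 1 array at a time gave 4 to 26 genes lower, with 6, 4 and 5 without vehicle replicates 1, 2 and 5 and 7, 7 and 6 without APAP replicates 1, 2 and 3. Without the vehicle arrays with raised Ucp1, 5 fell at 3 h. At 24 h the range was 12 to 32, with 12, 16 and 17 without vehicle replicates 1, 2 and 5 and 14 without APAP replicate 3, and it was 8 without both APAP replicates 1 and 3. The ranges at 6 h and 9 h were 24 to 34 and 27 to 33.

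Promoter sequence is shown for genes that mark the range of the changes. These were Ndufaf3, which had the largest fall, Ndufs5 and Ndufb6, which fell at every time, Sdhd, the complex II subunit with the largest fall, and Cox6a1, which fell at no time. Each is the 250 bases before the RefSeq start site in GRCm38.p6, written 5′ to 3′ on the gene's own strand, which is the minus strand for all of them. The windows are chr9:108567437-108567686 for Ndufaf3, chr4:123718187-123718436 for Ndufs5, chr4:40279422-40279671 for Ndufb6, chr9:50603850-50604099 for Sdhd and chr5:115348959-115349208 for Cox6a1. Capitals mark matches on either strand to the motif of nuclear respiratory factor NRF1 (10 letters with any base at the sixth, so the longest of the capital runs), CCGGAAG, that of the ETS family to which GABP belongs, AAGGTCA, that of the oestrogen-related receptors, or ATGGCGG, that of YY1.
Ndufaf3: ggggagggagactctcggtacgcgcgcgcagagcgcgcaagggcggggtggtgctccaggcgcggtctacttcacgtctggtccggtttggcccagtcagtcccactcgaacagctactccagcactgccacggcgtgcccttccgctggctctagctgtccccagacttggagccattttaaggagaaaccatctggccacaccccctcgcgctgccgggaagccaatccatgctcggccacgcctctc
Ndufs5: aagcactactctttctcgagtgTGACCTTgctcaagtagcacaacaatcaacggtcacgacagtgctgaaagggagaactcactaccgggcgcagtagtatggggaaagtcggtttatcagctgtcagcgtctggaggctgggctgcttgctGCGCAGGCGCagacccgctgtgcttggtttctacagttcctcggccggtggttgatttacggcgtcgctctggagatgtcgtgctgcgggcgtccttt
Ndufb6: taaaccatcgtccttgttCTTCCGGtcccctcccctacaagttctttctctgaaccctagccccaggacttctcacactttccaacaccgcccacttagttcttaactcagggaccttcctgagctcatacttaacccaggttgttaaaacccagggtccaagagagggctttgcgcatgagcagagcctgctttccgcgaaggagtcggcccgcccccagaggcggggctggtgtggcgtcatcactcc
Sdhd: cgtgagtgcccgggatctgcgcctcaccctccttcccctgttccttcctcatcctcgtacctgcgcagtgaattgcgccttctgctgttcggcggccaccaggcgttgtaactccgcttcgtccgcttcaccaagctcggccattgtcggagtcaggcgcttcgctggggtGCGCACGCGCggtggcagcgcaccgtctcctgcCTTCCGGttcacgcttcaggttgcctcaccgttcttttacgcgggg
Cox6a1: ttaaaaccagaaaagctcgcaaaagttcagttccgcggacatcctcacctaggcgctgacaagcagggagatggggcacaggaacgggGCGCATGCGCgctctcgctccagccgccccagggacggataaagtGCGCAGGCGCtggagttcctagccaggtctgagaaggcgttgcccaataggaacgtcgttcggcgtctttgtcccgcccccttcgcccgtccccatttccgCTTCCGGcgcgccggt

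The Ndufs5 window held a receptor match 228 bases and an NRF1 match 98 bases before the start, and the Ndufb6 window an ETS match at 232 bases. The Sdhd window held an NRF1 match at 79 bases and an ETS match at 46. Cox6a1 held NRF1 matches at 162 and 117 bases and an ETS match at 16, and Ndufaf3 held none. Windows were found for 64 of the 80 genes, which gave 68 windows because some have more than 1 start. NRF1 matched 16.2% of them and 3.74% of all 32851 windows of the same length, YY1 8.82% and 2.21%, ETS 14.7% and 6.91%, and the receptor motif 4.41% and 4.08%. Among genes that fell at 1 or more times, 19 of 48 windows (39.6%) held any of the 4 motifs. Among those that fell at none 6 of 20 (30%) did, and of all windows 15.5% did. By motif these 2 sets of members differed both ways. The shares were 20.8% and 5% for NRF1, 10.4% and 5% for YY1, 12.5% and 20% for ETS, and 4.17% and 5% for the receptor motif. A match describes these letters only, and binding was not measured here.

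The assembly factors of complex I showed the largest falls of the 80 genes up to 9 h. Of the 8, 5, 7, 7 and 0 fell at the 4 times (all genes, 14.2%, 17%, 15% and 16.1%), with median log2 differences of -0.27, -0.38, -0.29 and -0.11. Ndufaf3 forms a complex with Ndufaf4 in the early steps of assembly. Its log2 values at 9 h were 9.13, 9.54, 9.39, 9.61 and 9.62 after APAP and 10.17, 10.02, 10.11, 9.88 and 10.25 after vehicle. The groups did not overlap, and the difference was -0.63 ± 0.10 (SE, n = 5 per group, limma adjusted p = 0.000563), a 1.54-fold fall. At 3 h the difference was -0.40 ± 0.08 and at 6 h it was -0.55 ± 0.05 (adjusted p = 0.00209 and 3.29e-05). At 24 h it was -0.14 ± 0.07 (adjusted p = 0.137), and the vehicle level itself was then lower.

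Ndufaf6, which human genetics ties to complex I deficiency, read 8.84, 8.76, 8.62, 8.75 and 8.76 at 6 h after APAP and 9.20, 9.21, 9.49, 9.30 and 9.22 after vehicle. No APAP mouse reached a vehicle mouse, and the difference was -0.54 ± 0.06 (adjusted p = 0.000136). It was -0.46 ± 0.12 at 3 h (adjusted p = 0.0126), -0.27 ± 0.07 at 9 h (adjusted p = 0.0186) and -0.17 ± 0.09 at 24 h (adjusted p = 0.166). Ndufaf1, which acts with Acad9 in building the membrane arm, differed by -0.28, -0.51, -0.36 and -0.21 at the 4 times, and the last did not pass the test (adjusted p = 0.088). Its call at 3 h (adjusted p = 0.029) was lost on leaving out vehicle replicate 1, 2 or 5 or any of APAP replicates 1 to 4 (adjusted p of 0.0515 to 0.0707). Ndufaf7, a mitochondrial protein methyltransferase, fell by 0.40 and 0.43 on the log2 scale at 6 and 9 h (adjusted p = 0.000278 and 0.00016).

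Ndufaf4 passed the test at 3 h only. It then read 10.37, 10.69, 10.35, 10.80 and 10.40 after APAP and 11.06, 10.83, 10.89, 11.06 and 11.03 after vehicle, so the highest APAP value lay just below the lowest vehicle value. That fall was -0.45 ± 0.09 (adjusted p = 0.00373). At 6 h the difference of -0.36 ± 0.15 did not pass the test (adjusted p = 0.102), and the APAP mice spread from 10.09 to 11.03. The remaining factors, Ndufaf2, Ndufaf5 and Ndufaf8, were named after their values were seen. Their log2 differences at 6 h were -0.23, -0.36 and -0.36, all past the test.

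**Figure D2:**
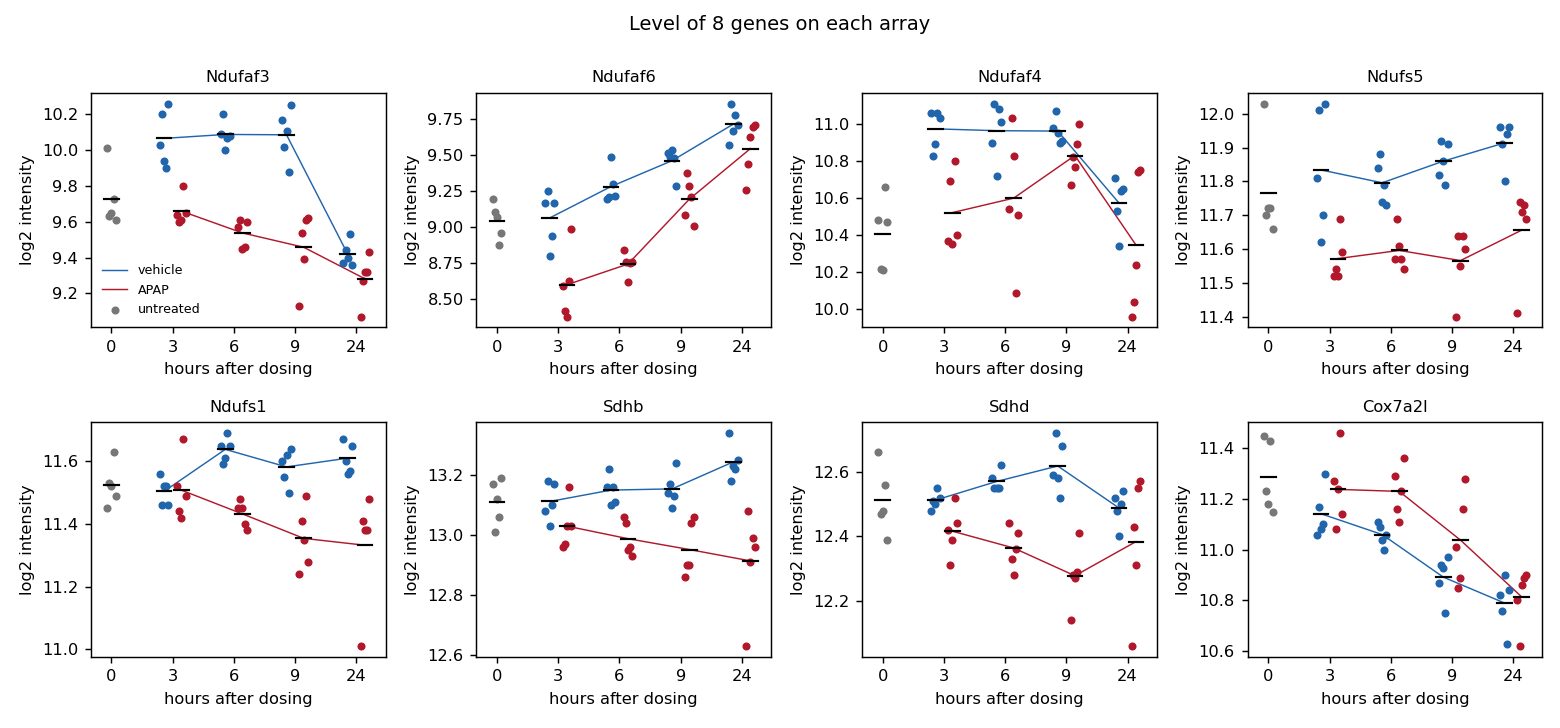
Log2 intensity (y axis) of Ndufaf3, Ndufaf6, Ndufaf4, Ndufs5, Ndufs1, Sdhb, Sdhd and Cox7a2l on each array against hours after dosing, with untreated mice at 0 h, time points spaced evenly and short bars at the group means. Ndufaf3 at 9 h lies between 9.13 and 9.62 after APAP and between 9.88 and 10.25 after vehicle, and Cox7a2l has vehicle means of 11.14, 11.06, 10.89 and 10.79 from 3 h to 24 h.

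The accessory subunits of complex I surround the catalytic core and are needed for its assembly and stability. Of 31, 11, 15, 17 and 15 fell at the 4 times (all genes, 14.2%, 17%, 15% and 16.1%), and none rose. Ndufa6, Ndufb6 and Ndufs5, named after their values were seen, fell at all 4 times, which 1.7% of all genes did. Ndufs5 read 11.40, 11.64, 11.55, 11.64 and 11.60 at 9 h after APAP, and 11.82, 11.92, 11.86, 11.79 and 11.91 after vehicle. The groups were separate, with a difference of -0.29 ± 0.06 (adjusted p = 0.00188), and the differences at 3, 6 and 24 h were -0.26, -0.20 and -0.26. Ndufb10, a membrane-arm subunit also named afterwards, fell by 0.25, 0.31 and 0.34 on the log2 scale at 3, 6 and 9 h, and its 24 h difference of -0.29 ± 0.11 did not pass (adjusted p = 0.0601). Ndufv3, next to the NADH site and likewise named afterwards, fell by 0.32 at 24 h (adjusted p = 0.00693).

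The core subunits carry the flavin and iron-sulphur clusters and form the ubiquinone site. None of the 6 fell at 3 h, and 3 fell at each of 6, 9 and 24 h (all genes, 14.2%, 17%, 15% and 16.1%). With so few genes, the count of 0 at 3 h does not set them apart from all genes. Ndufs1, Ndufs8, Ndufv1 and Ndufv2 are named here after their values were seen. Ndufs1, the largest iron-sulphur subunit, read 11.45, 11.48, 11.45, 11.40 and 11.38 at 6 h after APAP and 11.65, 11.59, 11.61, 11.69 and 11.65 after vehicle, with no overlap. Over the 4 times its difference was 0.01 ± 0.06, -0.21 ± 0.04, -0.23 ± 0.06 and -0.28 ± 0.08 (adjusted p = 0.933, 0.00183, 0.00868 and 0.0273). Ndufs8 fell by 0.25, 0.26 and 0.22 on the log2 scale from 6 h on. Ndufv2 fell at 6 and 9 h, and Ndufv1, which binds FMN and NADH, passed the test only at 24 h, with a fall of 0.16 on the log2 scale.

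**Figure D3:**
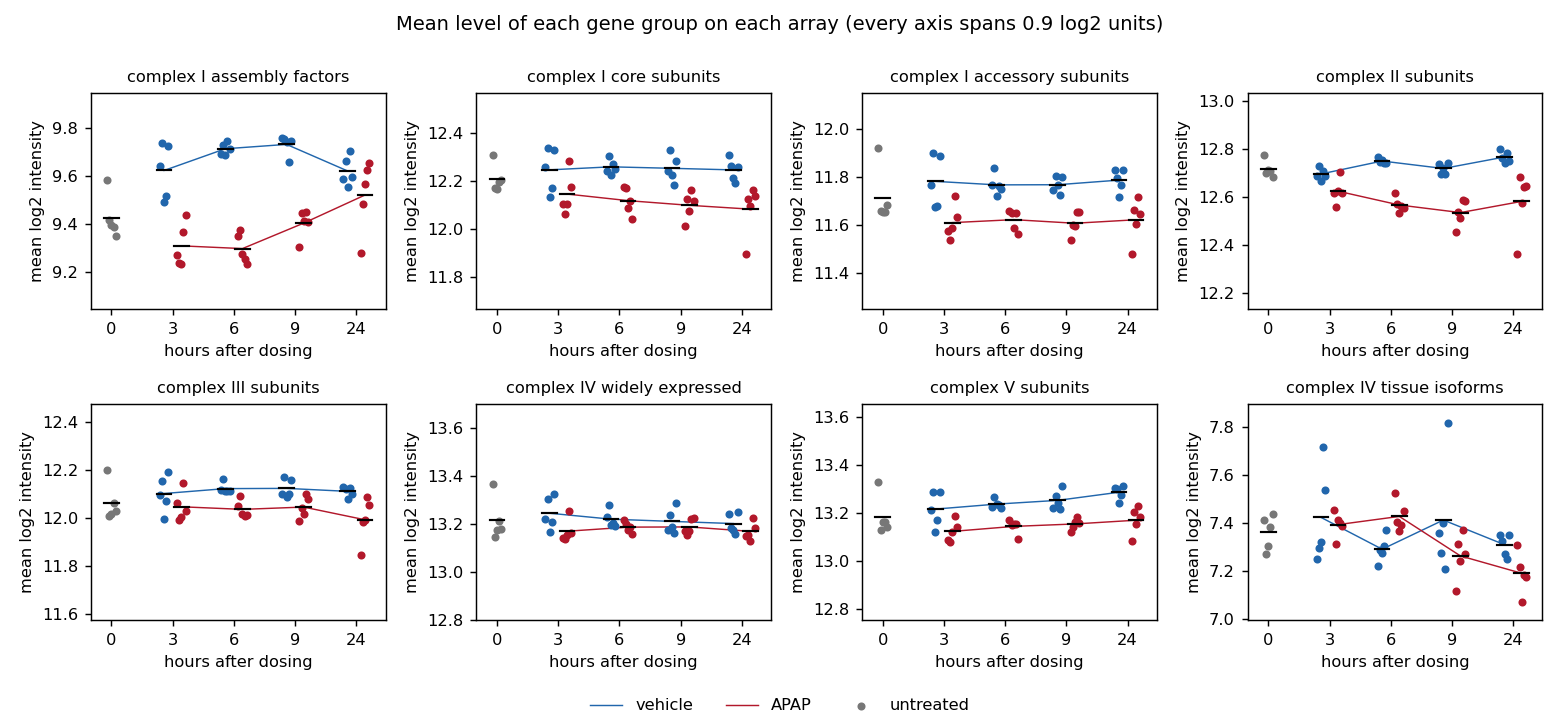
Mean log2 intensity of the genes of each role on each array (y axis) against hours after dosing, in 8 panels that each span 0.9 log2 units. Time points are spaced evenly, and short bars mark group means. The assembly factors lie at 9.24 to 9.38 after APAP and at 9.69 to 9.75 after vehicle at 6 h, while the widely expressed complex IV subunits overlap at every time.

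Complex II, succinate dehydrogenase, links the citric acid cycle to the chain. None of its 4 genes fell at 3 h, all 4 fell at 6 h, and 2 fell at each of 9 and 24 h. Of all genes, 14.2%, 17%, 15% and 16.1% fell, so 0 of 4 at 3 h does not set this complex apart. Sdha, the flavoprotein, differed by -0.16 ± 0.03 at 6 h and by -0.16 ± 0.05 at 24 h (adjusted p = 0.00586 and 0.0244). The latter fell short without APAP replicates 1 and 3 (-0.13, adjusted p = 0.105) or without vehicle replicate 1 (adjusted p = 0.058). Sdhb, the iron-sulphur subunit, read 12.63, 13.08, 12.91, 12.99 and 12.96 at 24 h after APAP and 13.34, 13.18, 13.23, 13.22 and 13.25 after vehicle. All APAP mice were below all vehicle mice, with replicate 1 the lowest, and the difference was -0.33 ± 0.08 (adjusted p = 0.0115).

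Sdhb also fell at 6 h, by 0.16, and at 9 h, by 0.20 on the log2 scale (adjusted p = 0.0164 and 0.0135), but without the arrays with raised Ucp1 the 9 h difference was -0.16 with an adjusted p of 0.0564. The membrane anchors are Sdhc and Sdhd. Sdhd read 12.14, 12.28, 12.27, 12.29 and 12.41 at 9 h after APAP and 12.59, 12.72, 12.58, 12.52 and 12.68 after vehicle. These groups did not overlap, and the difference was -0.34 ± 0.06 (adjusted p = 0.00105), against -0.20 ± 0.04 at 6 h (adjusted p = 0.0035) and -0.10 ± 0.09 at 24 h (adjusted p = 0.38). Sdhc fell at 6 h alone, by 0.21 on the log2 scale (adjusted p = 0.00111).

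Complex III, which passes electrons from ubiquinol to cytochrome c, changed little. Of its 6 genes, 0, 2, 0 and 1 fell at the 4 times (all genes, 14.2%, 17%, 15% and 16.1%). At 6 h these were the core protein Uqcrc1 (-0.16 ± 0.06, adjusted p = 0.0479) and the Rieske iron-sulphur protein Uqcrfs1 (-0.10 ± 0.03, adjusted p = 0.0459). Without the arrays with raised Ucp1 neither passed (adjusted p = 0.152 and 0.11), and on leaving out 1 array at a time Uqcrc1 missed the threshold in 8 of 10 fits and Uqcrfs1 in all 10, with adjusted p up to 0.106 and 0.0951. At 24 h it was Uqcrq, by -0.15 ± 0.04 (adjusted p = 0.025), which did not pass without APAP replicates 1 and 3 (-0.12, adjusted p = 0.115), without APAP replicate 3 alone (adjusted p = 0.0574) or without vehicle replicate 5 (adjusted p = 0.0582). Uqcrh, the hinge protein, differed by 0.07 or less in size at each time and did not pass the test.

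Complex V, the ATP synthase, had 2, 1, 1 and 4 of 10 genes lower at the 4 times, against 14.2%, 17%, 15% and 16.1% of all genes. Its share at 6 and 9 h, 10%, was below that background. Atp5j, a stalk subunit, fell at 3, 6 and 24 h, by 0.22, 0.16 and 0.13 on the log2 scale, and Atp5j2, of the membrane part, at 3 and 24 h. Neither call at 3 h held without the arrays with raised Ucp1 (adjusted p = 0.105 and 0.0682) or on leaving out vehicle replicate 1, 2 or 5 or APAP replicate 1, 2 or 3 (0.072 to 0.0942 and 0.053 to 0.0787). The 24 h calls of both were likewise lost in 6 of 10 such fits (0.0529 to 0.0692 and 0.0512 to 0.0674), those without APAP replicate 1 or 3 or vehicle replicate 1 or 2 among them. Atp5pb, of the peripheral stalk, fell at 9 h by 0.18 on the log2 scale (adjusted p = 0.0196, and 0.0521 without APAP replicate 1). At 24 h Atp5e, the epsilon subunit, read 11.79, 12.02, 11.85, 11.89 and 11.79 after APAP and 12.14, 12.11, 12.06, 12.09 and 12.11 after vehicle. Vehicle mice were tightly grouped above every APAP mouse, and the difference was -0.23 ± 0.05 (adjusted p = 0.00913). Atp5k, the e subunit, fell by 0.25 at 24 h (adjusted p = 0.0204, 0.0815 without APAP replicates 1 and 3, and 0.0528 without vehicle replicate 1). The catalytic beta subunit Atp5b, named after its values were seen, and the c-ring subunit Atp5g3 differed by 0.08 or less in size at each time and did not pass.

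Complex IV, cytochrome c oxidase, changed little. Of its 15 genes, 1, 1, 0 and 1 fell at the 4 times (all genes, 14.2%, 17%, 15% and 16.1%). Of the 8 widely expressed genes grouped with it by symbol, only Cox7a2 fell, at 3 h (-0.18 ± 0.06, adjusted p = 0.0413) and at 6 h (-0.13 ± 0.04, adjusted p = 0.0301). Both calls were lost without the arrays with raised Ucp1 (adjusted p = 0.15 and 0.0893). Leaving out 1 array at a time ended them in 8 and 6 of 10 fits (adjusted p up to 0.102 and 0.0723). Ndufa4, counted here with complex I and named after its values were seen, fell at 2 times. At 3 h it fell by 0.16 ± 0.05 on the log2 scale (adjusted p = 0.0435). Cox7a2l was the single member of the 80 to rise, by 0.17 ± 0.05 at 6 h (adjusted p = 0.0343). Its values were 11.29, 11.16, 11.11, 11.23 and 11.36 after APAP and 11.11, 11.09, 11.04, 11.00 and 11.06 after vehicle, so the groups touched at 11.11. The rise was 0.10 without APAP replicates 1 and 5, which had raised Ucp1 (adjusted p = 0.166), and it was lost in 7 of 10 fits without a single array (adjusted p up to 0.0831). Cox4i1, the common form of subunit 4, differed by -0.10, -0.01, 0.01 and 0.00 at the 4 times.

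Other isoforms of complex IV belong to other tissues. Cox4i2 is best known from lung, Cox6a2, Cox7a1 and Cox8b from heart, skeletal muscle and brown fat, and Cox6b2, Cox7b2 and Cox8c from testis. Of these 7, only Cox4i2 changed, at 24 h. It read 6.93, 7.09, 6.94, 7.09 and 7.06 after APAP and 7.32, 7.28, 7.30, 7.17 and 7.47 after vehicle, with no overlap and a difference of -0.29 ± 0.06 (adjusted p = 0.00839). All of these values are below the array medians of 7.59 to 7.66. Cox8c and Cox6a2 read above those medians, with vehicle means of 10.56 to 10.68 and 8.68 to 8.79. Cox6a2 differed by 0.06 to 0.08 at each time, Cox6b2 by 0.16, 0.07, -0.34 and -0.12, and Cox7a1 by -0.35, 0.05, -0.27 and -0.26, none past the test. The mean of the 12 striated muscle markers was between 5.97 and 6.12 in all groups, below the array lower quartiles of 6.23 to 6.43. It was lower on every APAP array at 24 h (5.90 to 6.02) than on the vehicle arrays of that time (6.06 to 6.12). Of those markers, 3 fell at 24 h, Acta1, Actn3 and Ckm (named afterwards), by 0.20, 0.19 and 0.18 on the log2 scale (adjusted p = 0.0497, 0.0278 and 0.0264). Their part in the fall of Cox4i2 was not tested.

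Cox8b was high on the arrays with raised brown fat markers. It read 6.75 to 8.36 on the 7 arrays with raised Ucp1 and 5.69 to 6.23 on the other 38, with no overlap. On the same 7 arrays Cidea was 7.09 to 9.06 (others 6.06 to 6.58) and Adipoq, the fat-cell hormone adiponectin, 6.73 to 10.01 (others 4.65 to 7.14). Cox7a1 overlapped between these sets, at 6.53 to 7.51 and 6.20 to 7.08, but its highest values, 7.51 and 7.42, were on the vehicle arrays with the highest Ucp1. Cox8b differed between APAP and vehicle by -0.47, 0.51, -0.28 and 0.02 at the 4 times, with no difference past the test. The sets were formed after the values were seen, so they are described without a test.

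**Figure D4:**
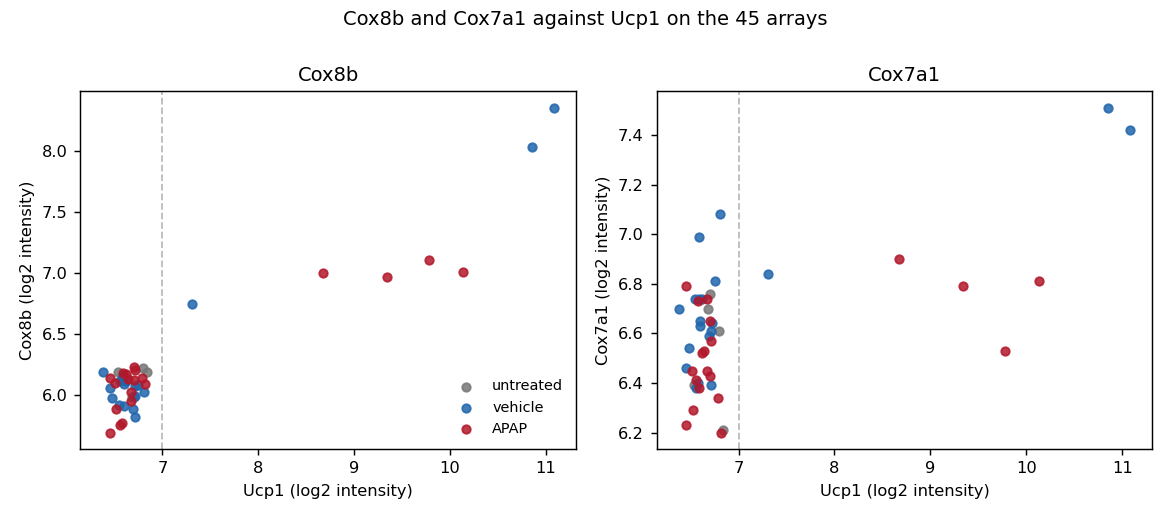
Log2 intensity of Cox8b (left) and Cox7a1 (right) against that of Ucp1 on each of the 45 arrays, coloured by treatment, with a dashed line at a Ucp1 value of 7. Cox8b lies at 6.75 to 8.36 right of the line and at 5.69 to 6.23 left of it, whereas the Cox7a1 values overlap.

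Whether the controls moved as well was asked by setting each vehicle group against the untreated mice. These 4 comparisons share the untreated arrays, and they share the vehicle arrays with those above, so their values are given side by side only. The study states that food was given back after the fast. Refeeding, dosing and elapsed time therefore cannot be told apart in them. Of the 80 genes, 0 fell and 2 rose at 3 h (all genes, 5.63% and 8.64%), 1 fell and 6 rose at 6 h (9.53% and 12.3%), 3 fell and 9 rose at 9 h (11.2% and 12.3%), and 4 fell and 13 rose at 24 h (12.7% and 11.8%). Up to 9 h both shares were below those of all genes, and at 24 h only the share that rose was above. At 1.5-fold only Ndufaf6, higher, and Cox6b2, lower, passed, both at 24 h, where 4.4% of all genes did, and none passed at 3, 6 or 9 h (2%, 2.89% and 3.87%). Without untreated replicate 1, the number that rose was 7, 17, 17 and 26. At 3 h it was 1 without untreated replicate 2, 3 or 5 or vehicle replicate 1, 2 or 5. At 24 h it was 7 to 8 without untreated replicate 3, 4 or 5 or vehicle replicate 1, 4 or 5.

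Among the genes that rose, the largest rises were in assembly factors. Ndufaf4 was higher by 0.57, 0.56 and 0.55 at 3, 6 and 9 h and by 0.17 at 24 h, the last not past the test. Ndufaf3 was higher by 0.34, 0.36 and 0.36 and then lower, at 24 h, by -0.31 ± 0.07 (adjusted p = 0.00767). The call at 3 h (adjusted p = 0.0259) was lost without untreated replicate 2, 3 or 5, without vehicle replicate 1, 2 or 5, or without the arrays with raised Ucp1 (adjusted p of 0.0506 to 0.067). In untreated mice Ndufaf3 read 10.01, 9.63, 9.65, 9.73 and 9.61, and in APAP mice at 3 h 9.64, 9.60, 9.61, 9.80 and 9.65. APAP values thus lay within or just below the untreated range while those of vehicle were 9.90 to 10.26.

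For Ndufaf6 the difference was larger at each later time, at 0.02, 0.24, 0.42 and 0.67, the last with an SE of 0.07 (adjusted p = 1.34e-05). Its 6 h call (adjusted p = 0.0335) was lost without untreated replicate 3, 4 or 5 or vehicle replicate 3 or 4 (0.0579 to 0.0777). Ndufaf5, which hydroxylates Ndufs7, was higher by 0.34, 0.36 and 0.45 at 6, 9 and 24 h, and Ndufaf7 by 0.34 and 0.36 at 6 and 9 h. Among the subunits, Ndufs8 was higher by 0.40 at 24 h (adjusted p = 7.41e-05), and Ndufb10 at 6, 9 and 24 h by 0.22, 0.25 and 0.21. Atp5mpl, a small membrane protein of the ATP synthase, was higher by 0.23 and 0.35 at 9 and 24 h. The main exception was Cox7a2l, which differed by -0.14, -0.23, -0.39 and -0.49. Its untreated values, 11.45, 11.23, 11.18, 11.43 and 11.15, were all above the vehicle values of 10.82, 10.76, 10.90, 10.63 and 10.84 at 24 h (adjusted p = 0.000249). The 6 h call of Cox7a2l was lost without untreated replicate 1 or 4 or vehicle replicate 4 or 5 (adjusted p of 0.0513 to 0.0654). Cox6b2 was lower by -0.59 ± 0.11 at 24 h (adjusted p = 0.00119), and Ndufa9 (named afterwards) and Sdha at 9 h and Ndufs7 at 24 h by -0.15, -0.14 and -0.20. For Sdha the call was lost without the arrays with raised Ucp1 (-0.13, adjusted p = 0.0759), and the calls of Sdha and Ndufs7 were each lost in 7 of 10 fits without a single array (adjusted p up to 0.0858 and 0.0927).

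Whether the difference between APAP and vehicle itself changed from 3 h to 24 h was tested as an interaction. For 8 genes it moved down and for 4 up, against 21.8% and 18.6% of all genes, and at 1.5-fold none passed (all genes, 8.25%). Ndufs1 moved by -0.29 ± 0.08 (adjusted p = 0.00642) and Sdhb by -0.25 ± 0.08 (adjusted p = 0.0124), with Sdha, Ndufv1 and Ndufa11 at -0.15, -0.19 and -0.23. The tissue isoforms Cox4i2, Cox8c and Cox7b2 moved by -0.40, -0.26 and -0.23. Cox7b2 is near the floor, with vehicle means of 4.65 to 4.78 against array lower quartiles of 6.23 to 6.43. Ndufaf5 moved up by 0.35 ± 0.11 (adjusted p = 0.0101), from -0.21 at 3 h to 0.14 at 24 h, and Ndufb1-ps, Ndufa4 and Cox6a1 by 0.34, 0.14 and 0.14. Of these 12 genes, Ndufs1, Ndufv1, Ndufa11, Ndufa4, Ndufb1-ps, Cox7b2 and Cox8c were named after their values were seen. Ndufaf3 moved by 0.27 ± 0.11 and Ndufaf6 by 0.29 ± 0.14, and neither passed (adjusted p = 0.0549 and 0.0829). Without APAP 24 h replicates 1 and 3, the genes that moved down numbered 3. The genes that moved up numbered 15 with array weights, 7 without APAP 24 h replicate 1 or vehicle 3 h replicate 3, and 2 without vehicle 3 h replicate 2.

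Other genes of the pathway were counted from lists drawn up from textbook roles, and each count of falls stands against 14.2%, 17%, 15% and 16.1% of all genes at the 4 times. Of 15 measured assembly factors of complex I, 8 of which are the Ndufaf genes above, 10, 11, 13 and 1 fell at the 4 times and none rose. Acad9, a partner of Ndufaf1, fell by 0.73 on the log2 scale at 9 h (adjusted p = 2.07e-05), and Timmdc1, which helps build the membrane arm, by 0.65 at 6 h (adjusted p = 1.28e-05). Of 10 factors for complexes II and III, 7, 9, 3 and 1 fell. Sdhaf1, which helps load iron-sulphur clusters into Sdhb, fell by 0.75 at 3 h (adjusted p = 6.97e-05), Sdhaf4 by 0.58 at 9 h and Bcs1l, which inserts the Rieske protein, by 0.44 at 6 h. Of 19 factors for complexes IV and V, 12, 13, 10 and 2 fell and 1 rose, at 24 h. Cox15, a haem A synthase, fell by 0.61 at 6 h (adjusted p = 5.45e-06) and Coa6 by 0.44 at 3 h. Coa3 fell by 0.55 at 6 h before a rise of 0.31 at 24 h (adjusted p = 0.0461). Vehicle livers at the times of these falls were themselves above untreated ones for most of these genes. Those log2 differences were 0.49 for Acad9, 0.37 for Timmdc1, 0.29 for Sdhaf1, 0.20 for Sdhaf4 and 0.29 for Bcs1l. For Cox15 and Coa3 at 6 h they were 0.40 and 0.50. All of these passed the test, and Coa6 (-0.07) did not.

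Regulators of mitochondrial biogenesis went both ways, with 5, 6, 6 and 1 of 19 lower and 4, 3, 5 and 4 higher, where 8.13%, 10.4%, 13.4% and 13.4% of all genes were higher. Ppargc1a, the coactivator PGC-1alpha, rose by 1.02 ± 0.18 at 3 h over vehicle (adjusted p = 0.00142). The 3 h vehicle mice were themselves lower than untreated mice for Ppargc1a, by -1.16 ± 0.12 (adjusted p = 6.06e-05). Pprc1 rose by 0.70 at 24 h and Gabpa, a subunit of GABP, by 0.33 at 9 h. Tfb1m, which methylates mitochondrial ribosomal RNA, fell by 0.61 at 6 h, Tefm, an elongation factor of mitochondrial transcription, by 0.56 at 6 h, and Polg2, of the mitochondrial DNA polymerase, by 0.61 at 24 h. Of 17 electron carriers and donors, 5, 7, 11 and 4 fell and none rose. Coq8a and Coq3, both of ubiquinone synthesis, fell by 1.39 (24 h) and 0.48 (6 h), and Suox, sulphite oxidase, by 0.88 (24 h). In vehicle against untreated at those times, Coq8a differed by 0.93, Suox by -0.29 and Coq3 by -0.12, the last not past the test. Of 14 citric acid cycle enzymes, 3, 6, 5 and 2 fell, among them Idh3a and Cs at 3 h by 0.43 and 0.36 and Idh2 at 9 h by 0.41, while Fh1 rose by 0.21 at 6 h. Their count at 24 h was below the share of all genes, and their median differences were -0.05, -0.10, -0.10 and -0.09. In vehicle against untreated, Idh3a and Cs were higher by 0.33 and 0.35 at 3 h and Idh2 by 0.13 at 9 h. Fh1 differed by -0.18 at 6 h, not past the test. Of 8 nucleotide and phosphate carriers, 1, 1, 0 and 0 fell and 1, 2, 0 and 2 rose, so falls were no more frequent than among all genes, and the median differences were -0.02, 0.02, -0.01 and 0.13. Slc25a25, a calcium-regulated ATP-magnesium and phosphate carrier, rose by 1.24 ± 0.24 at 3 h (adjusted p = 0.00262). Slc25a24, of the same kind, rose by 0.65 at 24 h and Ucp2 by 0.54 at 6 h, and the outer membrane channel Vdac1 fell by 0.23 at 3 h. Only Ucp2 among these also differed in vehicle against untreated at the same time, by -0.26 (adjusted p = 0.0168).

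Markers of cell types moved with APAP beside these changes. At the 4 times 14.2%, 17%, 15% and 16.1% of all genes fell and 8.13%, 10.4%, 13.4% and 13.4% rose. Of 10 pericentral hepatocyte markers, 7, 7, 8 and 9 fell at the 4 times, and their mean on the APAP arrays was 10.43 to 10.81, 10.34 to 11.17, 10.08 to 10.64 and 9.78 to 10.41, against 11.31 to 11.67 on the vehicle arrays. Glul, glutamine synthetase of the cells next to the central vein, had means of 10.87, 11.31, 10.71 and 9.96 after APAP and 13.06 to 13.21 after vehicle. Of 9 periportal markers, 5, 3, 2 and 1 rose, and 3 fell at 24 h. Their group means were 13.02, 12.94, 12.75 and 12.50 after APAP and 12.57, 12.75, 12.68 and 12.55 after vehicle. The untreated mean of these markers was 12.90, above every vehicle mean. Of 13 leukocyte and macrophage markers 3, 3, 7 and 7 rose, and their group means were 8.99, 9.20, 9.36 and 9.75 against 8.71 to 8.85 after vehicle, with the APAP 24 h arrays spread from 8.95 to 10.64. Of 11 hepatocyte markers none fell, and 0, 1, 1 and 2 rose. Their group means of 14.54 to 14.58 lie near the highest value on any array, 15.04, where a fall may be hard to see. The part of these shifts in the values of the respiratory chain genes was not tested.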

How the data were processed

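Liver RNA of 45 mice was measured on Affymetrix arrays, 1 array a mouse. The deposited values are log2 intensities, which the authors made with RMA (affy 1.64.0 in R 3.6.1), that is background correction, quantile normalisation and summary of probes per Entrez gene. They run from 3.38 to 15.04, and the number of arrays limits their precision. A second table paired the gene identifiers with symbols, but none of its 45 columns of values could be tied to a sample by the labels, and they were not used. Of the 80 symbols, 79 matched RefSeq. Quantile normalisation fixes each array's distribution, so a shift shared by all genes cannot be seen. Levels of genes were set only beside array medians, lower quartiles and the highest value, not beside each other.

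The difference between groups was fitted with limma 3.58.1 (lmFit and eBayes, R 4.3.3, statmod 1.5.0), 2 groups at a time, two-sided (the study used limma against time-matched vehicle, but its model is not given in the sources used here), with Benjamini-Hochberg adjustment over 18180 genes and a threshold of 0.05. The change from 3 h to 24 h was the interaction in a model of those groups. The fits were tested on simulated data. The members and lists were chosen with earlier results of these data known. Genes were named by a rule: per complex up to 5 past the threshold with the largest change, the 1 with the least, the extremes of vehicle against untreated, the isoform sets of Cox4, Cox6a, Cox6b, Cox7a, Cox8 (Cox8a and Cox8b) and Atp5g, and all of complex II, and per list up to 3 in each direction. Others are said to be chosen afterwards. One gene that the rule named is not reported here.

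Replicate numbers did not pair the mice. Alternatives were 1 model over all 45 arrays, array weights, trend and robust moderation, median centring, a replicate block, leaving out the dimmest 25% of genes, each array in turn or, chosen after seeing the data, the arrays that stood apart, and stricter thresholds. For single genes, the alternatives were run on those the rule named. RMA itself was not rerun. Promoter windows are RefSeq's for GRCm38.p6.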

Additional observations from a re-analysis of the deposited data

Results flagged for a closer look

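Among 34 named genes in 9 groups, 306 sets of 5 arrays were searched for a lone array far from the other 4, and 20 had one. Chance gives about 1 in 20. Untreated replicate 1 was high for Atp5j (13.22, others 12.97 to 13.03), Atp5j2 (13.19, others 12.91 to 12.94), Cox7a2 (13.55, others 13.19 to 13.22) and Uqcrh (13.54, others 13.29 to 13.35), and low for Sdha (12.69, others 12.76 to 12.79). APAP 3 h replicate 4 was high for Ndufaf3 (9.80, others 9.60 to 9.65), Ndufs7 (12.17, others 11.87 to 11.94), Uqcrfs1 (13.09, others 12.99 to 13.01) and Uqcrh (13.48, others 13.33 to 13.37). APAP 24 h replicate 1 was low for Sdhc (12.22, others 12.42 to 12.48) and Uqcrc1 (11.98, others 12.21 to 12.30).

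Vehicle 9 h replicate 5 was high for Cox8b (8.36, others 5.82 to 6.19) and Cox6a1 (14.22, others 14.16 to 14.17) and low for Ndufaf6 (9.29, others 9.48 to 9.54). The remaining lone values were Atp5mpl in vehicle 24 h replicate 5 (12.84), Cox8a in APAP 9 h replicate 4 (13.18), Ndufaf7 in vehicle 6 h replicate 3 (8.94), Sdha in vehicle 3 h replicate 5 (12.59) and APAP 3 h replicate 2 (12.62), and Uqcrq in vehicle 9 h replicate 2 (11.25).

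For 12 of the 80 genes the interaction in limma showed an APAP effect at 24 h unlike that at 3 h. Of all genes, 21.8% moved down and 18.6% up by the same test, so such changes were less frequent among the 80. For those 12 the values follow. The log2 changes were -0.23 for Ndufa11, 0.14 for Ndufa4, 0.35 for Ndufaf5, 0.34 for Ndufb1-ps, -0.29 for Ndufs1, -0.19 for Ndufv1, -0.15 for Sdha, -0.25 for Sdhb, -0.40 for Cox4i2, 0.14 for Cox6a1, -0.23 for Cox7b2 and -0.26 for Cox8c.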

How the results depend on the processing

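No direction reversed. After APAP at 3 h, where 19 of the 80 genes fell, the count was 35 in 1 model over all 45 arrays, 31 with array weights, 10 with the replicate block, 5 without the arrays with raised adipose markers (an alternative chosen after seeing the data) and 3 at an adjusted p under 0.01. With the replicate block, 12 fell at 24 h (26 without it), 0 rose at 6 h (1) and 1 fell in vehicle at 9 h (3), and 14 of 18 counts stayed within 1.5 times. Same-numbered mice correlated at -0.27 to 0.40, and at most 2 of 5 pairs were over 0.1. At an adjusted p under 0.01, 17, 17 and 4 fell from 6 h on, and 0 rose at 6 h. Also at 0.01, vehicle against untreated gave 1 higher at 3 h, 0 lower at 6 h, 1 lower at 9 h and 6 higher at 24 h, and the change from 3 h to 24 h gave 3 down and 0 up. At 1.5-fold, 0, 0, 1 and 0 fell after APAP at the 4 times and 0 rose. In vehicle at 1.5-fold 0 rose at 3, 6 and 9 h and 1 at 24 h, 0 fell at 6 and 9 h and 1 at 24 h, and 0 changed between 3 h and 24 h.

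With array weights 2 rose at 6 h and 1 at 24 h after APAP, 4 rose at 3 h and 15 at 6 h in vehicle, and 15 moved up from 3 h to 24 h (4 without weights). In 1 model over all arrays 0 rose at 6 h, and with centred arrays 0 fell in vehicle at 6 h (1). Without the arrays with raised adipose markers 0 rose at 6 h and 1 at 24 h after APAP, and in vehicle 1 rose at 3 h and 1 fell at 9 h. Without APAP 24 h replicates 1 and 3, also chosen after seeing the data, 8 fell at 24 h and 3 moved down. Leaving out 1 array at a time gave 4 to 26, 24 to 34, 27 to 33 and 12 to 32 lower after APAP, and 0 to 2 higher at 6 h and 0 to 1 at 24 h. In vehicle it gave 1 to 7, 4 to 17, 8 to 17 and 7 to 26 higher, and 0 to 1, 1 to 3 and 3 to 4 lower at 6, 9 and 24 h. The interaction gave 7 to 9 down and 2 to 7 up. The cause was not tested. Trend and robust moderation and the filter on dim genes left all 18 counts within 1.5 times.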
